A study of Mus musculus with 8 samples.

Results

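The tumour necrosis factor (TNF) receptor-associated factors (TRAFs) and a group of regulators were examined in spleen neutrophils. Of the regulators, the Tnfaip genes are named for induction by TNF, and Tnip1 for the interaction of its protein with that of Tnfaip3. The 10 genes were chosen by symbol, but with earlier results of these data known. The adaptors are Traf1, Traf2, Traf3, Traf4, Traf5 and Traf6, and the regulators are Tnfaip2, Tnfaip3, Tnip1 and Tnfaip8. Together they are 10 of the 55414 genes listed in each count file. The study's own text names Traf1, Traf3, Traf5, Tnfaip2, Tnfaip3 and Tnip1 from these same samples, so their direction here is not independent evidence.

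TRAF proteins bind the cytoplasmic tails or adaptors of TNF receptors, interleukin-1 receptors and Toll-like receptors, and pass the signal to kinases that release the transcription factor NF-kB. Many of their regulators are themselves NF-kB target genes: Tnfaip3 encodes A20, which edits ubiquitin chains on signalling proteins and shuts the pathway down, and Tnip1 encodes ABIN1, an adaptor that brings A20 to its substrates. In neutrophils, which respond to TNF, interleukin-1 and microbial products, this circuit sets how long an inflammatory stimulus keeps signalling.

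RNA was sequenced from 4 wild-type (WT) and 4 Cxcr2-/- FVB mice of 10 weeks kept in specific and opportunistic pathogen-free housing, with 1 library per mouse. CXCR2 is the receptor through which neutrophils sense ELR+ CXC chemokines and leave the bone marrow, and the Cxcr2-/- mice lack it in every cell of the body, not in neutrophils alone. The cells were selected for CD11b and then sorted as CD45+, CD11b+, Ly6G+ and F4/80-. Mice of both groups carried no other labelled allele or treatment, and the question here was how the RNA of the TRAF circuit differed between the genotypes.

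Between 34220182 and 46233555 read pairs fell on genes in the WT libraries and between 37549648 and 43789253 in the Cxcr2-/- libraries. Levels are given as CPM, a share of the read pairs on genes of a library, scaled between libraries with TMM factors. Cxcr2 itself ran from 1719 to 2252 CPM in WT and from 12.9 to 20.7 CPM in Cxcr2-/- libraries, so all 8 libraries matched their labels. Of 10 neutrophil markers, 7 were higher and 2 lower in Cxcr2-/- libraries, and all 10 granule genes of immature neutrophils were higher, with a summed level of 21897 to 26679 CPM in WT and 51399 to 73788 CPM in Cxcr2-/- libraries. The 10 B cell markers summed to 76.8 to 165 CPM in WT and 32.3 to 77.2 CPM in Cxcr2-/- libraries, with 8 of the 10 lower. The 10 macrophage and monocyte markers summed to 448 to 545 CPM in WT and 206 to 309 CPM in Cxcr2-/- libraries, but most of that sum was Csf1r (403 to 499 and 190 to 269 CPM), and of the 10 only Csf1r and Adgre1 were lower, Fcgr1 and Mertk were higher and 6 were not called. Between 49.1% and 64.1% of the summed B cell, T cell and macrophage markers was Csf1r. Pairs on no gene made up 31.4% to 41.5% in WT and 26.7% to 31.9% in Cxcr2-/- libraries. These values move with the genotype, and beyond the fits with covariates their part in the results was not tested. In such bulk samples, fewer cells of a type and less RNA per cell cannot be told apart.

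Because many of the regulators are NF-kB targets, the bases just before their start sites were read for a 10-letter NF-kB consensus. The reference promoters of RefSeq (GRCm38.p6) held an entry for 9 of the 10 genes, in 10 windows of 250 bases before a start site, since Tnfaip3 has 2. The NF-kB consensus was present in windows of Traf3, Tnfaip2, Tnfaip3 and Tnip1 and was not found in those of Traf1, Traf2, Traf4, Traf5 and Traf6. Over all 32851 promoter windows of that length, 7.25% held it. The AP-1 motif TGANTCA, on either strand, was in 1 window of the 10 genes, against 6.75% of all windows. The cyclic AMP response element TGACGTCA was in none of them, against 1.55% of all windows. These windows precede a start site of RefSeq, which need not be the outermost start of the gene: 192 of the 250 bases for Tnfaip2, 110 for the first Tnfaip3 window and 39 for Traf4 lie in exons of longer GENCODE M21 transcripts. To show where the matches lie, up to 150 bases before the RefSeq start and outside annotated exons of the gene are printed for 3 of the 4 genes with a match, 5′ to 3′ on the strand of the gene. They are chr12:111166220-111166369 (plus strand) for Traf3, chr10:19015411-19015547 (minus strand) for the first Tnfaip3 window and chr11:54962941-54963090 (minus strand) for Tnip1. Capitals mark the NF-kB matches and, as the first capital run of Tnfaip3, the AP-1 match.
Traf3: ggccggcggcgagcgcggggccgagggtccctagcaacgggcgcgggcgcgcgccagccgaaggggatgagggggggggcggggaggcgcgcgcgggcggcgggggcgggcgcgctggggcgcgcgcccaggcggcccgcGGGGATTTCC
Tnfaip3: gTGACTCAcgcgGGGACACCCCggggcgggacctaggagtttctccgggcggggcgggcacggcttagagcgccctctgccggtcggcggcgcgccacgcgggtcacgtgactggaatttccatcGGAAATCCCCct
Tnip1: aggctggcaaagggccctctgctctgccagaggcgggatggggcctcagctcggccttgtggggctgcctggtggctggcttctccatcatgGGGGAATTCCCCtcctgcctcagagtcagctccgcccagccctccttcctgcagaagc
In Traf3 the match ended 1 base before the start, and in Tnfaip2 it lay 24 to 15 bases before the RefSeq start, inside the first exon of a longer transcript, so that stretch is not printed. Tnfaip3 held matches 125 to 116 and 12 to 3 bases before the start, beside an AP-1 match 136 to 130 bases before it. The capital run of Tnip1, 58 to 47 bases before the start, is 3 overlapping matches. A match describes letters in the reference and is not evidence that a factor binds there, and a missing match says only that these letters are not in this window.

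Of the 10 genes, 6 were lower in Cxcr2-/- neutrophils (Traf1, Traf3, Traf5, Tnfaip2, Tnfaip3 and Tnip1), 1 was higher (Tnfaip8) and 3 did not pass the test (Traf2, Traf4 and Traf6). A call meant an adjusted p under 0.05 in the quasi-likelihood test of edgeR, after Benjamini-Hochberg correction over 16778 genes. Among all genes tested, 21.0% were lower and 23.7% were higher. A difference of at least 1.5-fold was seen in 4 of the 10, all lower (Traf1, Traf5, Tnfaip2 and Tnfaip3), against 15.7% of all genes lower by that much. The groups did not overlap in 5 genes with lower Cxcr2-/- values, Traf6 being among these, and in 1 with higher values, against 19.1% and 22.5% of all genes. The median log2 fold change of the 10 was -0.34, against 0.01 over all genes tested. All 10 genes had at least 10 counts in every library, the lowest being 161 counts for Traf1. With the summed B cell, T cell and macrophage markers as a covariate, 86.9% of whose variance lay between the genotypes, edgeR called 0 of the 10 genes lower and 0 higher (2 and 0 at an unadjusted p under 0.05). With the share of pairs on no gene as a covariate, 3 were lower (Traf5, Tnfaip2 and Tnip1) and 0 higher.

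**Figure D1:**
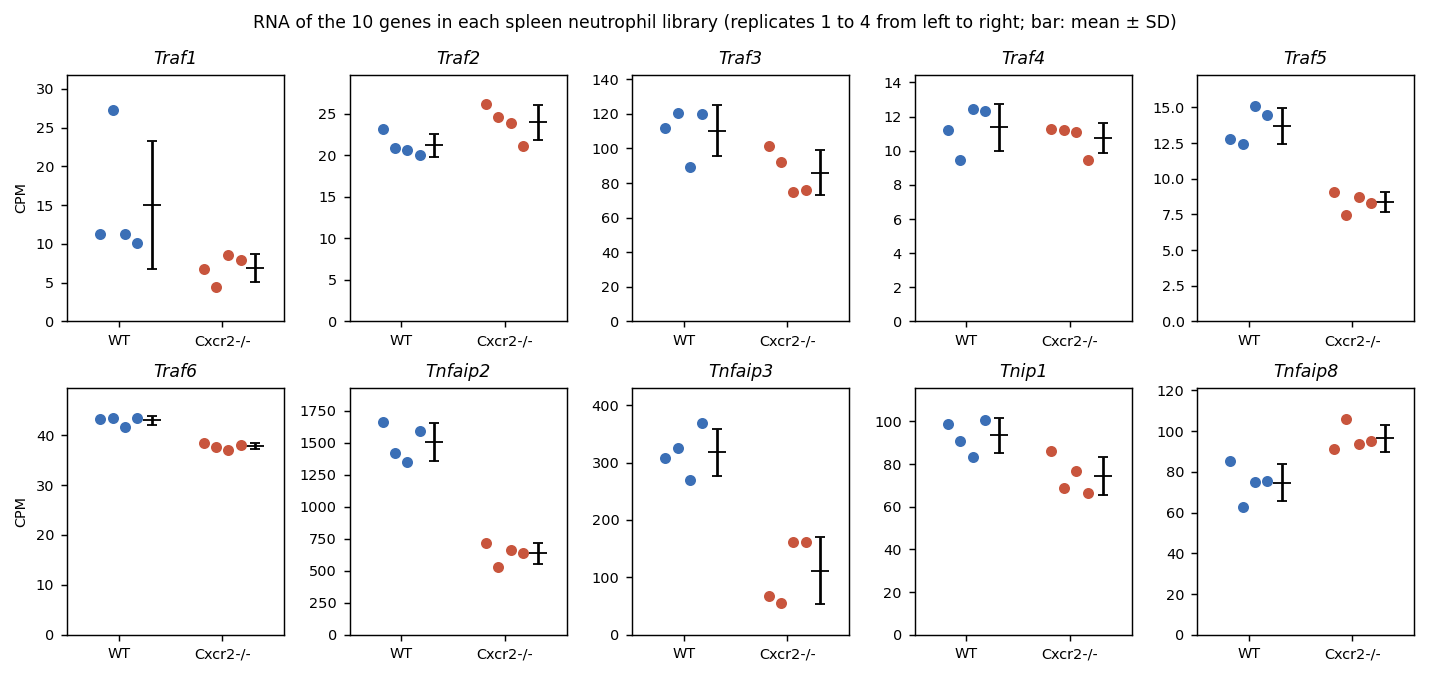
Each panel plots 1 gene, with CPM on the vertical axis from 0 and 1 point per library, WT in blue and Cxcr2-/- in red, and the black bar is the mean ± SD of 4 libraries. Tnfaip2, Tnfaip3, Traf1, Traf5 and Traf6 have every Cxcr2-/- point below every WT point, Tnfaip8 has every one above, and in Traf1 the WT library 2 stands at 27.3 CPM.

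Tnfaip3, which encodes the ubiquitin-editing enzyme A20, showed the largest difference of the 10. Its levels were 309, 326, 269 and 368 CPM in WT libraries 1 to 4 and 67.4, 55.0, 162 and 162 CPM in Cxcr2-/- libraries 1 to 4. Every Cxcr2-/- library was below every WT library, and within the Cxcr2-/- group libraries 1 and 2 were lower than 3 and 4. The log2 fold change was -1.51 ± 0.30 (SE, n = 4 per group), 2.85-fold lower, with an edgeR adjusted p of 0.00140. The gene lies on chr10:19000910-19015657.

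The spread of Tnfaip3 within the Cxcr2-/- group was accompanied by other genes. Nfkbia, the NF-kB inhibitor that is itself rapidly induced by NF-kB, stood at 197, 163, 443 and 386 CPM in Cxcr2-/- libraries 1 to 4, and at 461 to 562 CPM in WT. Cxcl2, a chemokine that binds CXCR2, stood at 12.7, 9.91, 236 and 193 CPM in the same 4 libraries, and at 349 to 666 CPM in WT. Libraries 3 and 4 were thus the higher ones for all 3 genes. Mpo, the myeloperoxidase of primary granules, was also higher there, at 19.1, 20.2, 81.2 and 146 CPM. So were the summed B cell markers, at 36.8, 32.3, 61.0 and 77.2 CPM. The 10 granule genes of immature neutrophils, Mpo among them, ran the other way in sum, at 73788, 62125, 60038 and 51399 CPM. That sum follows its abundant genes, such as Ltf at 26104, 21782, 18959 and 17392 CPM. Elane, Prtn3, Ctsg and Ms4a3 of the same list were, like Mpo, higher in libraries 3 and 4 than in 1 and 2. Prtn3, for example, was at 20.4, 17.5, 63.5 and 92.1 CPM. Ltf, Camp and Chil3 were lower in libraries 3 and 4, and Ngp and Lcn2 followed neither pattern. The part of these differences in the level of Tnfaip3 was not tested beyond the fits with covariates. With the summed B cell markers as a covariate, a choice made after seeing the data, the log2 fold change of Tnfaip3 was -0.75 and no longer passed.

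**Figure D2:**
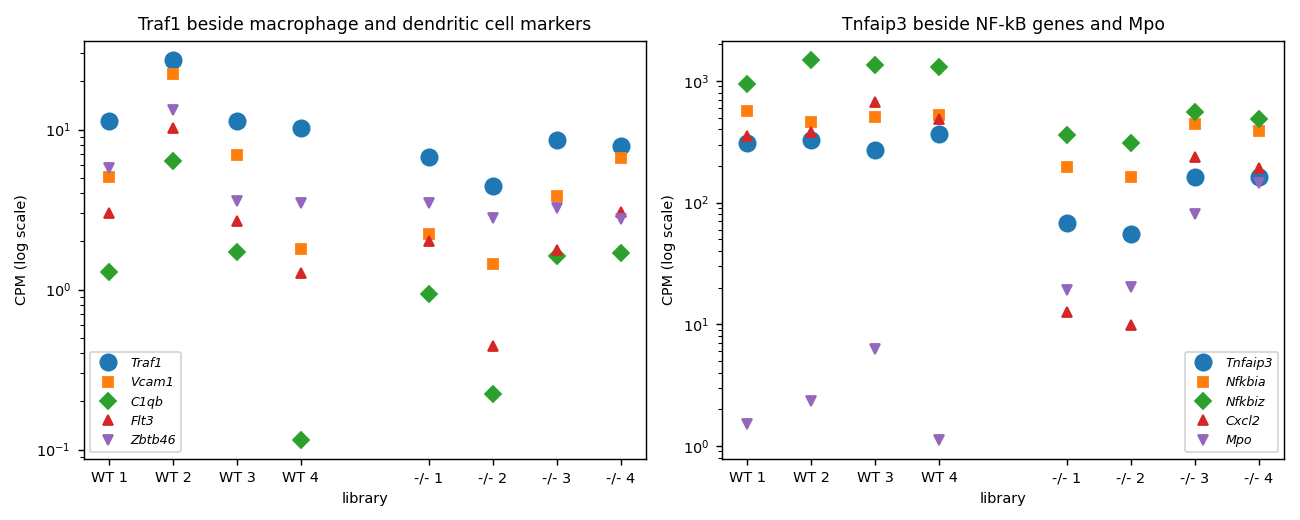
Both panels plot CPM on a log axis for each library, WT 1 to 4 on the left and Cxcr2-/- 1 to 4 on the right of each panel, with a larger symbol for the TRAF circuit gene. In the left panel Traf1 and 4 markers of macrophages or dendritic cells are all highest in WT library 2, and in the right panel Tnfaip3, Nfkbia, Nfkbiz, Cxcl2 and Mpo are all higher in Cxcr2-/- libraries 3 and 4 than in 1 and 2.

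Tnfaip2, a TNF-induced gene whose protein (M-Sec) takes part in membrane tubulation, was the most abundant of the 10. It measured 1665, 1421, 1348 and 1592 CPM in WT and 718, 528, 659 and 638 CPM in Cxcr2-/- libraries. The lowest WT library was well above the highest Cxcr2-/- library, and no library stood apart within its group. Its log2 fold change was -1.24 ± 0.12 (SE, n = 4 per group), 2.37-fold lower, with an edgeR adjusted p of 6.03e-06. The gene lies on chr12:111442469-111455018, and 314 of its exon bases are shared with the antisense gene Gm40578, which had 3322 counts over the 8 libraries.

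Tnip1, whose protein ABIN1 links A20 to its substrates, differed less. It measured 99.0, 90.9, 83.3 and 101 CPM in WT and 86.2, 68.6, 76.6 and 66.6 CPM in Cxcr2-/- libraries. The groups overlapped by 1 library, since Cxcr2-/- library 1 was above WT library 3. This gave a log2 fold change of -0.33 ± 0.10 (SE, n = 4 per group), 1.25-fold lower, with an edgeR adjusted p of 0.0209. The call was lost when WT library 1 or 4 or Cxcr2-/- library 2 or 4 was left out, with a highest adjusted p of 0.0700. The gene lies on chr11:54910785-54962917.

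Tnfaip8, which encodes a lipid-binding protein linked to cell survival, was the only member called higher. It measured 85.3, 62.9, 75.2 and 75.8 CPM in WT and 91.0, 106, 93.5 and 95.3 CPM in Cxcr2-/- libraries. Every Cxcr2-/- library was above every WT library. The log2 fold change was 0.37 ± 0.10 (SE, n = 4 per group), with an edgeR adjusted p of 0.0106. Without WT library 2, its lowest, the log2 fold change was 0.27 and the adjusted p 0.0524, and upper-quartile scaling also ended the call, at 0.25. Of its exon bases, 1312 (12.7%) are shared with C030005K06Rik on the opposite strand, which had 1035 counts over the 8 libraries, and no promoter of Tnfaip8 is shown.

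Traf1, which joins TRAF2 at TNF receptor 2 and is known as an NF-kB target, was the most scarce of the 10 per kilobase in both genotypes. It measured 11.3, 27.3, 11.3 and 10.2 CPM in WT and 6.72, 4.45, 8.62 and 7.90 CPM in Cxcr2-/- libraries. The groups did not overlap, and WT library 2 was far above every other library. The log2 fold change was -1.12 ± 0.31 (SE, n = 4 per group), 2.17-fold lower, with an edgeR adjusted p of 0.0100. Without WT library 2 it was -0.68 ± 0.20 (SE), with an adjusted p of 0.0198. The gene lies on chr2:34941750-34961772.

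WT library 2 was also the highest for some markers of other cell types, but not for all of them. Its summed B cell markers (76.8 CPM) and T cell markers (115 CPM) were the lowest of the WT libraries. Most of that T cell sum was Cd3d, at 80.1 CPM there, and the T cell markers did not move together. Cd3d, Cd3g and Cd5 were lowest there among the WT libraries, whereas Cd3e, Cd4, Cd8a, Cd28, Lck and Themis were highest. Apart from Cd4, those highest in WT library 2 were scarce, at 0.141 to 1.09 CPM. Csf1r, at 499 CPM in WT library 1, was at 425 CPM in WT library 2. Vcam1, an adhesion molecule of splenic macrophages, was at 22.2 CPM there and at 1.79 to 6.90 CPM in the other WT libraries. C1qb, a complement gene of macrophages, was at 6.39 CPM there and at 0.116 to 1.71 CPM in the others. Flt3 and Zbtb46, which mark dendritic cells, were at 10.2 and 13.2 CPM there, and Cd4 at 14.1 CPM. With C1qa, C1qb, C1qc, Vcam1 and Spic summed as a covariate, chosen after seeing the data, Traf1 was still lower, with a log2 fold change of -0.77 ± 0.19 (SE) and an edgeR adjusted p of 0.00448. It lost the call in the other 3 fits with a covariate: the log2 fold change was -0.084 (adjusted p 0.961) with the summed B cell, T cell and macrophage markers, -0.74 (0.363) with the share of pairs on no gene and -1.22 (0.0737) with the B cell markers.

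Traf5, an adaptor of several lymphocyte TNF receptors that shares much of its binding with TRAF3, was lower with little spread. It measured 12.8, 12.4, 15.1 and 14.5 CPM in WT and 9.08, 7.47, 8.74 and 8.29 CPM in Cxcr2-/- libraries. The groups were clearly apart and no library stood out. This was a log2 fold change of -0.70 ± 0.12 (SE, n = 4 per group), 1.63-fold lower, with an edgeR adjusted p of 4.89e-04, and it passed when any 1 library was left out. The gene lies on chr1:191997205-192092559. It shares 205 exon bases with the opposite-strand gene Gm26879 and 65 with Mir3473c, which had 4 and 10 counts over the 8 libraries.

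Traf3, which with TRAF2 keeps the kinase NIK low and so restrains non-canonical NF-kB signalling, differed by a smaller amount. It measured 112, 120, 89.3 and 120 CPM in WT and 101, 92.1, 74.8 and 75.7 CPM in Cxcr2-/- libraries. The groups overlapped, because WT library 3 was below Cxcr2-/- libraries 1 and 2. The log2 fold change was -0.36 ± 0.13 (SE, n = 4 per group), 1.28-fold lower, with an edgeR adjusted p of 0.0328. The call did not hold when WT library 1, 2 or 4 or Cxcr2-/- library 3 or 4 was left out, with a highest adjusted p of 0.0951. The gene lies on chr12:111166370-111267153.

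Traf2, Traf4 and Traf6 did not pass the test. Traf2, the ubiquitin ligase adaptor at both TNF receptors, measured 23.2, 20.9, 20.7 and 20.0 CPM in WT and 26.2, 24.7, 23.9 and 21.2 CPM in Cxcr2-/- libraries. Its groups overlapped. For its log2 fold change of 0.18 the 95% interval ran from -0.04 to 0.39, and the edgeR adjusted p was 0.171. Traf4, a TRAF that acts in interleukin-17 signalling and epithelial morphogenesis, measured 9.46 to 12.5 CPM in WT and 9.45 to 11.3 CPM in Cxcr2-/- libraries. Its log2 fold change of -0.08 had a 95% interval from -0.36 to 0.20, so a difference of 1.5-fold lies outside the interval. Traf6, the ubiquitin ligase of interleukin-1 and Toll-like receptor signalling, measured 43.2, 43.5, 41.6 and 43.4 CPM in WT and 38.5, 37.6, 37.1 and 38.0 CPM in Cxcr2-/- libraries. These groups did not overlap, but the difference was small, with a log2 fold change of -0.18 ± 0.08 (SE, n = 4 per group) and an edgeR adjusted p of 0.0668 (unadjusted 0.0318). It passed with upper-quartile scaling, with total counts, when only genes with 10 or more counts in each library were kept, and with DESeq2. Traf2 and Traf6 lie on chr2:25517982-25546940 and chr2:101678429-101701669, and Traf4 on chr11:78158499-78165589.

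**Figure D3:**
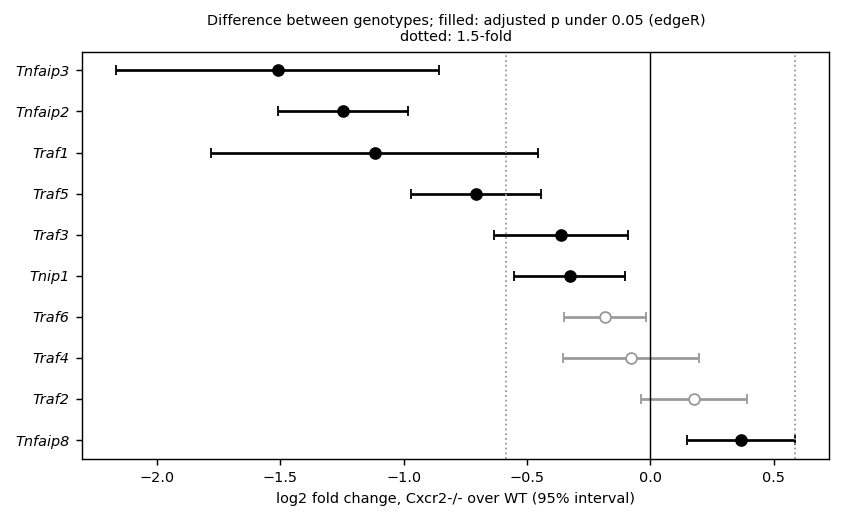
The horizontal axis is the log2 fold change of Cxcr2-/- over WT with its 95% interval from edgeR, filled where the adjusted p was under 0.05, and dotted lines mark 1.5-fold in each direction. Tnfaip3 (-1.51), Tnfaip2 (-1.24), Traf1 (-1.12) and Traf5 (-0.70) lie past the 1.5-fold line, and Tnfaip8 (0.37) is the filled point on the other side of 0.

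Levels of different genes were compared as CPM per kilobase of annotated exon, which is approximate because the annotation used for counting was later than the one that gave the lengths. In WT neutrophils the order of the group means was Tnfaip2 (302), Tnfaip3 (44.0), Tnip1 (26.4), Traf3 (15.0), Tnfaip8 (7.24), Traf6 (5.45), Traf2 (4.16), Traf4 (3.45), Traf5 (3.0) and Traf1 (1.70 CPM per kilobase). Neighbours in that order were apart in all 4 libraries except Traf4 with Traf5 and Traf5 with Traf1. In Cxcr2-/- neutrophils the order was Tnfaip2 (128), Tnip1 (21.1), Tnfaip3 (15.5), Traf3 (11.7), Tnfaip8 (9.34), Traf6 (4.80), Traf2 (4.70), Traf4 (3.27), Traf5 (1.84) and Traf1 (0.785 CPM per kilobase). Here the ranges of Tnip1 and Tnfaip3, Tnfaip3 and Traf3, Traf3 and Tnfaip8, and Traf6 and Traf2 overlapped. The 10 genes together made up 1967 to 2372 CPM in WT and 935 to 1155 CPM in Cxcr2-/- libraries, most of it Tnfaip2.

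The ratio of counts of 2 members was taken within each library, which does not depend on how libraries are scaled. TRAF and A20 proteins act in complexes, but a ratio of RNA counts does not measure a complex. For Tnfaip2 and Tnfaip8 over Tnfaip3, no shared complex is claimed here. Of 7 ratios, 5 differed between the genotypes with no overlap. This was the smallest p that 4 against 4 libraries allow in an exact permutation test (two-sided, p = 0.0286, adjusted over the 7 ratios 0.04). The share of other gene pairs whose ratios differ in this way was not computed. Of single genes, 19.1% were lower and 22.5% higher without overlap, so the count of ratios alone says little about these members. For Tnfaip8 over Tnfaip3 the outcome was fixed in advance by the single genes. Every Cxcr2-/- library was above every WT library for Tnfaip8 and below every one for Tnfaip3. The ratio of these genes therefore had to separate the groups, and its p adds nothing to their own results. Relative to Traf2, the mean log2 ratio was lower in Cxcr2-/- libraries by a difference of -1.20 for Traf1, -0.54 for Traf3 and -0.88 for Traf5. Tnip1 over Tnfaip3 was 0.274 to 0.321 in WT and 0.411 to 1.28 in Cxcr2-/- libraries, a log2 difference of 1.34. Tnfaip8 over Tnfaip3 rose from 0.193 to 0.279 in WT to 0.576 to 1.93 in Cxcr2-/- libraries, a log2 difference of 2.04. Both of these were highest in Cxcr2-/- libraries 1 and 2. Traf3 over Traf6 differed by -0.18 with overlapping groups (exact permutation p = 0.2, adjusted 0.233), and Tnfaip2 over Tnfaip3 by 0.42 (exact permutation p = 0.429).

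**Figure D4:**
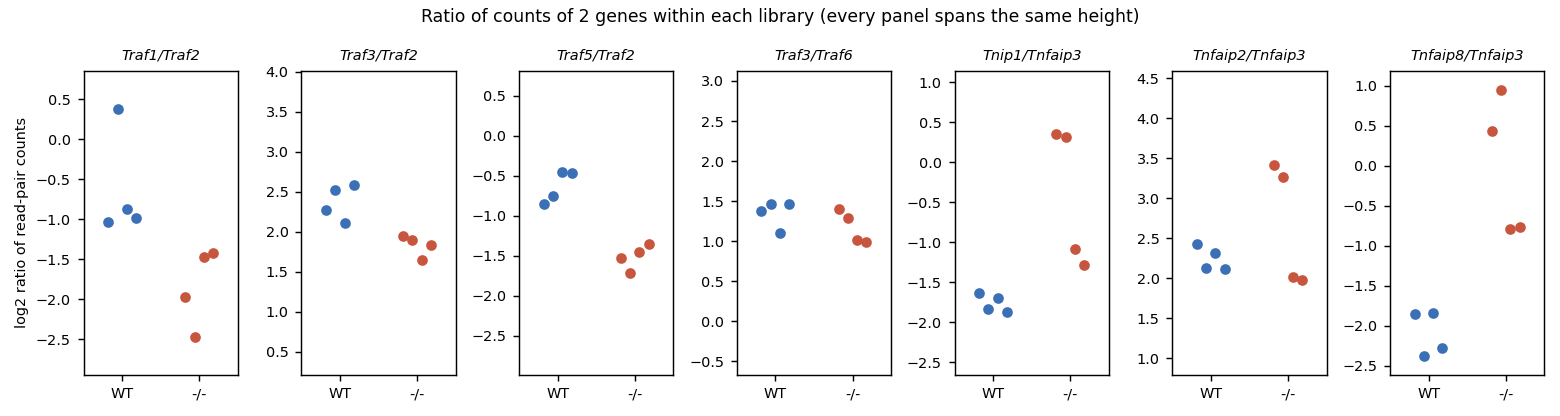
Each panel plots the log2 ratio of read-pair counts of 2 genes in each library, with WT in blue and Cxcr2-/- in red, and every panel spans the same height. Traf1, Traf3 and Traf5 over Traf2 lie lower in Cxcr2-/- libraries, Tnip1 and Tnfaip8 over Tnfaip3 lie higher, and Traf3 over Traf6 and Tnfaip2 over Tnfaip3 overlap.

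The wider circuit is described by lists, whose counts are set beside the share of all genes called in each direction (21.0% lower, 23.7% higher). Of the other TRAF, Tnfaip and Tnip genes, 15 of 16 were tested, and 0 were lower and 4 higher by edgeR, with a median log2 fold change of 0.14. At an unadjusted p under 0.05, 2 were lower, and DESeq2 called 1 lower. The 4 were Tnfaip8l1 (TIPE1, a relative of Tnfaip8), with a log2 fold change of 1.98 from 0.578 to 1.07 CPM in WT to 2.55 to 3.66 CPM in Cxcr2-/- libraries, Traip (1.24), a ubiquitin ligase that acts at replication forks, Tank (0.62), a TRAF-binding scaffold of TBK1, and Traf7 (0.54). Tnip2 (-0.24, adjusted p 0.0641) and Tnip3 (-0.83, adjusted p 0.179), the other ABIN genes, did not pass.

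Of the 26 ubiquitin and kinase partners of the TRAFs, 8 were lower and 5 higher, with a median log2 fold change of -0.04. Rnf11 (-0.64), a member of the A20 complex, and Map3k14 (-0.60), which encodes the kinase NIK, were the lowest by the naming rule. TRAF3 keeps NIK low as a protein, and only RNA was measured here. Birc2 (-0.59) and Birc3 (-0.42), the cIAP ubiquitin ligases recruited by TRAF2, were also lower. The 5 higher were Ikbke (1.15), the kinase IKK-epsilon, Map3k7 (0.61), the TAK1 kinase downstream of TRAF6, Tradd (0.47), Tab1 (0.40) and Ikbkg (0.28). The count of lower partners was 5 with the unfiltered genes, with the replicate block, and without WT library 4 or other single libraries, as given in the closing section.

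Of 25 receptors and receptor adaptors upstream of the TRAFs, 24 were tested, and 6 were lower and 5 higher, with a median log2 fold change of -0.08. Il1rap (-1.02), the shared chain of interleukin-1 family receptors, fell from 228 to 282 CPM in WT to 113 to 152 CPM in Cxcr2-/- libraries. Tnfrsf1b (-0.87), TNF receptor 2, at which TRAF1 and TRAF2 assemble, measured 288 to 401 CPM in WT and 162 to 206 CPM in Cxcr2-/- libraries. Tnfrsf1a, TNF receptor 1, had a log2 fold change of -0.31 and an edgeR adjusted p of 0.0345. Its WT (507 to 583 CPM) and Cxcr2-/- (394 to 518 CPM) libraries overlapped. Tnfrsf13c (-1.50), Il1r1 (-0.96) and Irak2 (-0.68) were the others that were lower, and their groups did not overlap. Tnfrsf13c had the lowest log2 fold change of the list, but it and Il1r1 were scarce, with an average log2 CPM of 0.57 and -0.42. Tnfrsf13b (1.40), the receptor TACI, and Ticam1 (0.91), the Toll-like receptor adaptor TRIF, were the highest. Il18r1 (0.66), Tnfrsf14 (0.49) and Irak1 (0.26) were the others that were higher, and the groups of Irak1 overlapped. Only 4 of 17 TNF superfamily ligands had enough counts to be tested. Tnfsf14 (LIGHT, -0.70) and Tnfsf13b (BAFF, -0.55) were lower, whereas Tnf itself was higher, with a log2 fold change of 0.50, although its WT (27.6 to 39.8 CPM) and Cxcr2-/- (39.3 to 56.4 CPM) libraries overlapped.

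Of 23 NF-kB genes and NF-kB targets, 15 were lower and 5 higher, with a median log2 fold change of -0.67. This list holds genes that the study's text names from these samples, so its direction is not independent. Ptgs2 (-3.22), the prostaglandin synthase COX-2, and Ccl3 (-2.72), a chemokine, fell most by the naming rule. The 5 higher were Nfkbib (0.89), an NF-kB inhibitor, Bcl2l1 (0.80), the survival protein Bcl-xL, Bcl3 (0.69), Tnf (0.50) and Nfkb1 (0.34). Of 23 immediate early genes, which respond within minutes to many stimuli, 20 were lower and 0 higher by edgeR (0 also by DESeq2 and at an unadjusted p under 0.05), with a median of -1.57, and their summed level was 17088 to 19631 CPM in WT and 4178 to 6437 CPM in Cxcr2-/- libraries. The part of the immediate early genes in the lower levels of Tnfaip3 and the other NF-kB targets was not tested.

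**Figure D5:**
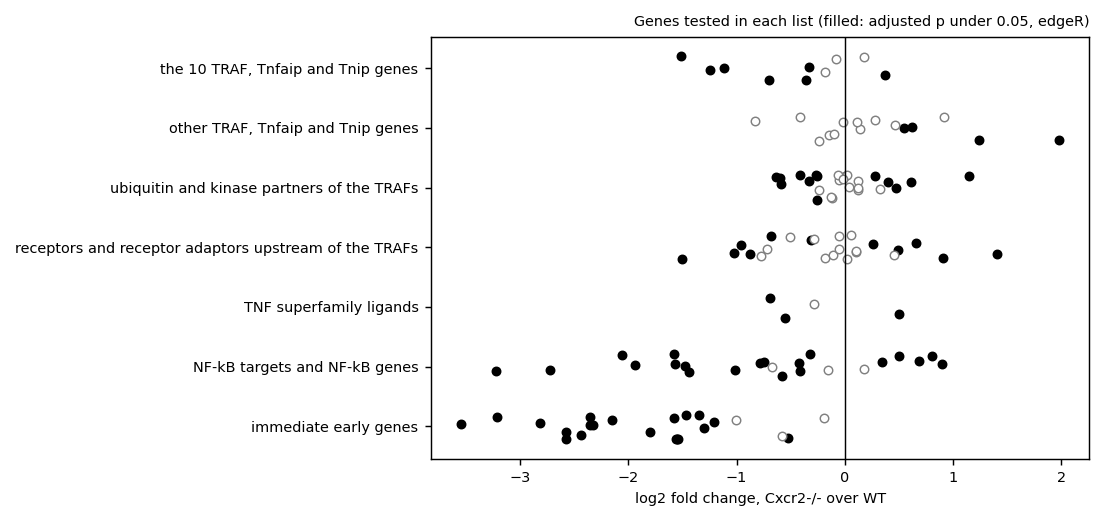
Each point is 1 tested gene of a list on the vertical axis, placed by its log2 fold change of Cxcr2-/- over WT and filled where the edgeR adjusted p was under 0.05, and its height within a list carries no value. The medians run from 0.14 for the other TRAF, Tnfaip and Tnip genes to -0.34 for the 10 genes, -0.67 for the NF-kB list and -1.57 for the immediate early genes.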

How the data were processed

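RNA was extracted from sorted spleen neutrophils of 4 WT and 4 Cxcr2-/- mice, depleted of ribosomal RNA and made into strand-specific libraries. The authors aligned the trimmed pairs to mm10 (STAR), ran HTSeq and deposited whole-number counts per gene without normalization. The version of each tool and the strand setting of the counting are not given in the sources used here, so reads of overlapping or antisense genes are uncertain. The counting program's summary lines held 42.4% to 53.6% of the pairs in each library and were left out.

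Groups and replicate numbers came from the labels. No pair of replicates agreed within sampling noise (a chi-square per gene of 23.9 to 99.0 between libraries of a group). Identifiers were matched to GENCODE M21 (GRCm38), where 52133 of 55414 had an entry and 52096 carried a later version number in the files, so the exon lengths are approximate. Counts were tested with edgeR 4.0.16 (R 4.3.3; TMM factors, filterByExpr, quasi-likelihood test, Benjamini-Hochberg over 16778 genes), with no covariate. A gene was called at an adjusted p under 0.05, and the 1.5-fold threshold is that of the study's methods. DESeq2 1.42.0, other scalings and filters, a replicate block, marker covariates and leaving out each library were alternatives. The edgeR and DESeq2 steps were tested on simulated data with known changes. Ratios were tested with an exact permutation test in SciPy 1.17.1.

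The 10 genes and all lists were chosen with earlier results of these data known. By rule, all 10 are named, and in each pathway list up to 2 lower and 2 higher genes with the largest change among those called whose average log2 CPM was 1 or more. The other genes named in the lists, and the markers and NF-kB genes named beside Tnfaip3 and Traf1, were chosen after their values were seen, as were the 4 macrophage markers named as called. Promoters came from RefSeq (GRCm38.p6), searched on both strands, and no protein sequence was used here.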

Additional observations from a re-analysis of the deposited data

Results flagged for a closer look

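In 70 groups of 4 libraries, 4 held 1 library far from the other 3, by the gap to its nearest neighbour as a share of the range, and chance gives about 1 in 20. Traf1 in WT library 2 was 27.3 CPM, the nearest WT library being at 11.3 CPM. The log2 ratio of Traf1 to Traf2 in the same library was 0.38, the nearest being -0.87. Traf4 in Cxcr2-/- library 4 was 9.45 CPM, the nearest being 11.1 CPM. Rnf11 in Cxcr2-/- library 2 was 161 CPM, the nearest being 129 CPM.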

How the results depend on the processing

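Over the 10 genes and 19 alternatives, 158 of 190 fits kept the direction and the side of the threshold, 25 lost the call, 4 gained it (all Traf6) and 3 changed sign. Upper-quartile scaling shifted the median log2 fold change of all genes by -0.12, so that 41.2% of its calls were higher against 53.0% with TMM factors and 44.3% with total counts. With upper-quartile scaling, 7 of the 10 genes were lower and 0 higher, and Tnfaip8 had a log2 fold change of 0.25. RLE scaling, the absence of a filter and the macrophage covariate left the same 6 lower and 1 higher.

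The number of calls under a covariate differed between the 4 covariates, as did the share of each that lay between the groups: 86.9% of the variance of the summed B cell, T cell and macrophage markers lay between the groups, 65.5% of that of the share of pairs on no gene, 63.5% of that of the B cell markers and 9.78% of that of the 5 macrophage markers. With the B cell, T cell and macrophage markers, 1915 genes were called (771 lower, 1144 higher). None of the 10 genes was called there by edgeR (0 lower, 0 by 1.5-fold, 0 higher, against 2 lower and 0 higher at an unadjusted p under 0.05). Tnfaip3 changed sign to a log2 fold change of 0.50 (adjusted p 0.543) and Traf2 to -0.011. In that fit the lower and higher counts were 0 and 1 for the partners, 1 and 1 for the receptors, 1 and 0 for the ligands, 0 and 0 for the NF-kB list and 3 and 1 for the immediate early genes, and 2 other TRAF, Tnfaip and Tnip genes were higher. With the share of pairs on no gene, 3083 genes were called (1486 lower, 1597 higher), 3 of the 10 were lower (2 by 1.5-fold) and 0 higher, and Traf2 changed sign to -0.039. The partners then had 3 lower and 2 higher, the NF-kB list 8 lower and 2 higher, the receptors 1 higher and the ligands 0 higher. With the B cell markers, chosen after seeing the data, 4393 genes were called (2004 lower, 2389 higher), 3 of the 10 (Traf3, Traf5 and Tnfaip2) were lower and 0 higher. The partners had 4 lower and 2 higher, the receptors 3 and 1, the NF-kB list 9 and 2, and the ligands 0 higher. The macrophage covariate, also chosen after seeing the data, left 7450 genes called and 5 partners lower. The cause of these differences was not tested.

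Of the other TRAF, Tnfaip and Tnip genes, where 0 were lower, 1 was lower with RLE scaling, 2 with upper-quartile scaling, 2 with total counts, 1 with 10 or more counts in each library and 1 with DESeq2. The 8 lower partners were 5 without a filter, and the 5 higher were 3 with upper-quartile scaling, 3 with total counts and 3 without a filter. Leaving out 1 library gave 4 to 6 of the 10 genes lower and 0 to 1 higher (0 without WT library 2), 0 to 1 other TRAF, Tnfaip and Tnip genes lower, and 5 to 8 partners lower, fewest without WT library 1, WT library 4 or Cxcr2-/- library 1. With the replicate number as a block, 6 of the 10 were lower, 1 higher, and 5 partners lower. Same-numbered mice shared only a number: the correlations of their deviations were 0.15, -0.19, 0.24 and -0.31. With 4 mice a group, an exact permutation test cannot go below p = 0.0286.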
